A study of Mus musculus with 6 samples.

Results

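The genes described here are 10 genes of lipid uptake, lipid binding and scavenging, chosen by name: Cd36, Lpl, Vldlr, Fabp1, Fabp3, Fabp4, Fabp5, Msr1, Olr1 and Pparg. Each was found by its symbol, so that they are 10 of the 17684 genes in the deposited gene table. Of the 10 genes, 9 were among the 13679 genes that reached 10 counts in 3 or more libraries, and Olr1 was not. Kidney RNA was sequenced from db/db mice aged 50 weeks, whose strain is C57 BLKS/L in the sample records and C57BLKS/J in the study's methods, with 3 libraries from the Db group and 3 from the Db + Ato10 group. Mice of both groups lack a working leptin receptor and become obese and diabetic. The Db group had received normal saline for 40 weeks. The Db + Ato10 group had received atorvastatin, an inhibitor of cholesterol synthesis, at 10 mg/kg for 40 weeks, given by gavage on some days of the week. One field of the sample records describes all 6 mice as treated with atorvastatin, while another separates saline from atorvastatin, and the groups follow the latter. The study enrolled male mice, and some of its mice died during treatment, so the kidneys are those of survivors. No source used here states that the 3 libraries of a group came from 3 separate mice, and p-values measure the spread between these libraries.

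Fatty acids reach kidney cells either bound to albumin or as triglycerides in lipoproteins. Lipoprotein lipase (Lpl) releases fatty acids from the triglycerides at the vessel wall, the VLDL receptor (Vldlr) binds the particles, the membrane protein Cd36 takes up long-chain fatty acids and oxidized lipoproteins, and the small fatty acid binding proteins (Fabp) carry fatty acids inside the cell. Macrophages also take up modified lipoproteins through scavenger receptors such as Msr1, while Olr1 is an oxidized LDL receptor best known from endothelium, and Pparg is a nuclear receptor for fatty acid ligands that drives several of these genes in fat and in macrophages.

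Expected counts (estimated reads per gene, before normalization) summed to 13134930, 11381678 and 12426051 in Db replicates 1 to 3, and to 14578023, 14667909 and 13133241 in Db + Ato10 replicates 1 to 3. Levels are given as CPM, counts brought to a common library size by TMM scaling. At these depths 3 counts correspond to between 0.198 and 0.26 CPM, and a lower level was not detectable (a limit of counting error only). Some libraries stood apart from the others of their group. Over 4 Y-linked genes (Ddx3y, Eif2s3y, Kdm5d and Uty) Db replicate 1 had 2 counts, against 1419 to 2116 in the other libraries. On the first principal component of log2 CPM, which held 71.1% of the variance, the Db libraries lay at -55.4, -26.9 and -52.0. Db + Ato10 replicates 1 and 2 lay far from them at 107 and 46.1, while Db + Ato10 replicate 3 lay at -18.8, next to the Db libraries. Each fit was repeated with 1 library left out at a time, and values that moved much are given.

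Across the 13679 tested genes, 0% met the study's criteria of a fold change over 1.5 and an adjusted p-value under 0.05 with edgeR's quasi-likelihood test, where the smallest Benjamini-Hochberg adjusted p was 0.239. At an unadjusted p-value under 0.05 there were 2314 genes. None of the 9 tested lipid genes met the criteria either (0 of 9). DESeq2 on the same counts called 6.46% of all tested genes and 1 of the 9, Msr1. At an unadjusted p-value under 0.05 from edgeR, 2 of the 9 genes were higher in the Db + Ato10 group (Msr1 and Fabp5), beside 11.2% of all tested genes, and 1 was lower (Lpl), beside 5.71%. In 1 gene, Msr1, every Db + Ato10 library lay above every Db library, as in 12% of all tested genes. In 2 genes, Lpl and Vldlr, every Db + Ato10 library lay below every Db library, as in 11.3%. The median log2 fold change (Db + Ato10 against Db) of the 9 genes was 0.39, and that of all tested genes was -0.0063. With 9 genes, these counts describe the listed genes only.

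The members thus had no common direction. The macrophage receptor Msr1 was higher in the Db + Ato10 group and Lpl was lower, each before adjustment for the number of genes tested. RNA levels of Fabp1 and Fabp3, grouped here as tubular, overlapped between the groups, as did those of Fabp4, grouped as endothelial.

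**Figure D1:**
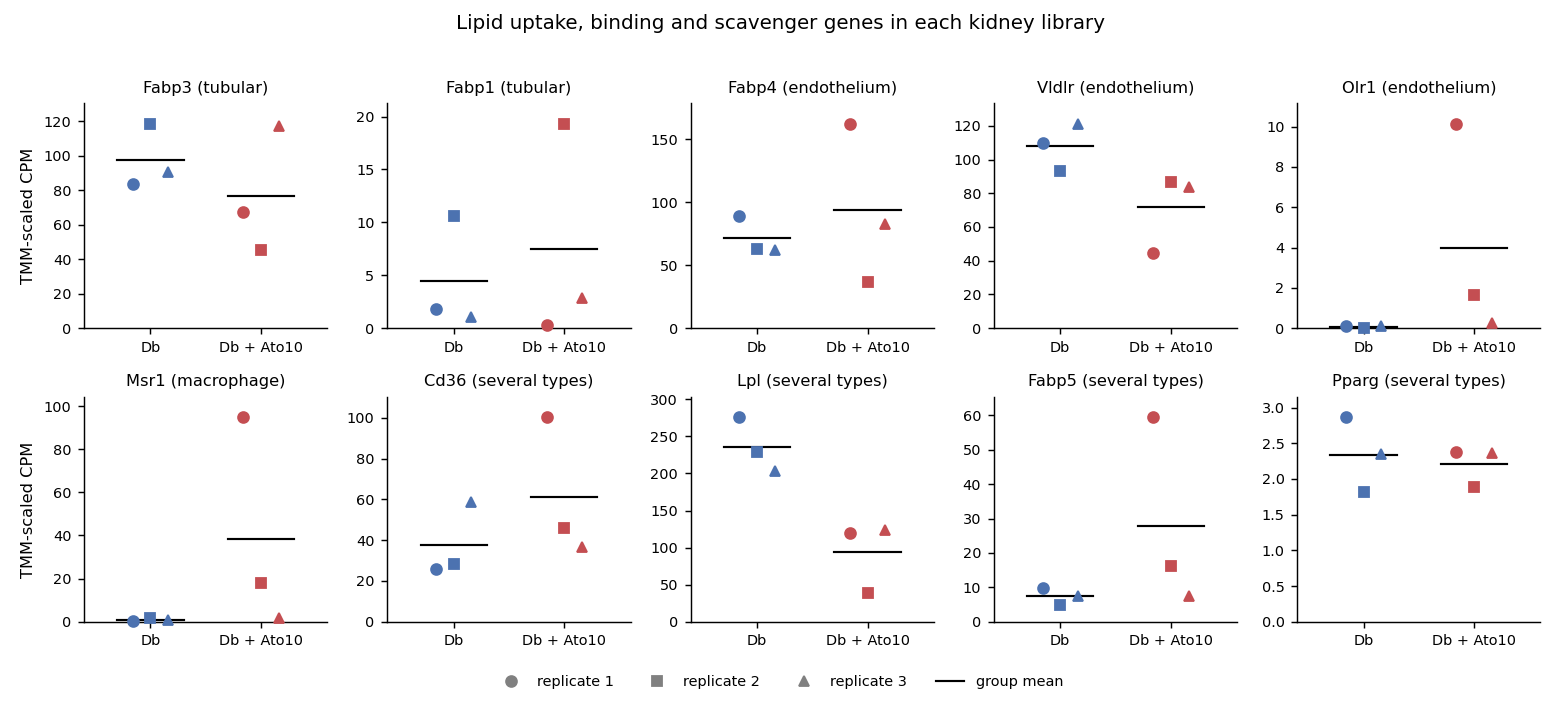
TMM-scaled CPM (vertical axis, linear, from 0) of the 10 genes in each library of the Db and the Db + Ato10 group, with 1 point per library, the replicate number given by the marker shape, and a bar at the group mean (n = 3). Lpl and Vldlr lay lower in every Db + Ato10 library than in any Db library, and the Db + Ato10 means of Msr1, Olr1 and Fabp5 rested largely on replicate 1 (94.7, 10.1 and 59.4 CPM).

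Of the members grouped as tubular, Fabp3 (NCBI Gene 14077), a fatty acid binding protein first known from heart muscle, had 83.3, 118 and 90.6 CPM in Db replicates 1 to 3 and 67.3, 45.4 and 117 CPM in Db + Ato10 replicates 1 to 3. Db + Ato10 replicates 1 and 2 lay below all Db libraries, and Db + Ato10 replicate 3 lay near the highest Db library, so the groups overlapped. Means were 97.4 ± 18.5 CPM for Db and 76.7 ± 36.9 CPM for Db + Ato10 (± SD, n = 3 each). In the edgeR fit the log2 fold change of -0.35 had a standard error of 0.35 (adjusted p = 0.599), and it was -0.78 without Db + Ato10 replicate 3 (adjusted p = 0.105 with edgeR) and -0.06 without Db + Ato10 replicate 2.

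Fabp1 (NCBI Gene 14080), the liver-type binding protein, had 1.83, 10.6 and 1.05 CPM in the Db replicates and 0.329, 19.3 and 2.84 CPM in the Db + Ato10 replicates. A single library was high in each group (replicate 2 of both), the others were low, and the lowest value, from 5 counts, was that of Db + Ato10 replicate 1. Within the Db group alone the highest library exceeded the lowest by 10.1-fold, and within the Db + Ato10 group by 58.6-fold. The log2 fold change of 0.75 had a standard error of 1.37 (adjusted p = 0.78 with edgeR) and turned to -1.50 without Db + Ato10 replicate 2. No direction can be given for Fabp1 from these libraries.

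Tubular marker sums had lower means after atorvastatin, and for the proximal tubule the groups overlapped. The 12 proximal tubule markers, all tested, summed to 16110, 11850 and 15050 CPM in the Db libraries and to 1683, 7403 and 13900 CPM in the Db + Ato10 libraries, and their most abundant gene per length was Miox. None of the 12 passed an unadjusted edgeR p-value of 0.05, and 12 of 12 log2 fold changes were negative, with a median of -0.79. With Db + Ato10 replicate 1 left out the median became -0.31. It became -1.55 when replicate 3 of that group was left out instead, where 6 of the 12 were lower at an unadjusted p-value under 0.05 and 29.9% of all tested genes were under it in either direction. The 3 with the smallest p-values were Slc5a12, Slc5a2 and Miox (log2 fold changes of -1.16, -1.55 and -1.47). The 10 markers of the thick ascending limb and distal tubule summed to 11640, 12720 and 10900 CPM in the Db libraries and to 6280, 3090 and 7655 CPM in the Db + Ato10 libraries, each below every Db library. Of these 10, 7 were lower at an unadjusted p-value under 0.05 (4 without Db replicate 2), beside 5.71% of all tested genes, and 0 were higher. They were led by Kcnj1, Slc12a1 and Cldn10 (log2 fold changes of -1.22, -1.48 and -0.98). Their most abundant gene was Umod, and the median log2 fold change was -1.12. In bulk kidney RNA, fewer cells of a type and less RNA per cell cannot be told apart. Fabp1 did not follow the proximal tubule sum among the libraries. Replicate 2 of each group was highest in Fabp1 (10.6 and 19.3 CPM) but not in that sum, although Db + Ato10 replicate 1 was lowest in both. The part of these lists in the results for Fabp1 and Fabp3 was not tested.

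Among the members grouped as endothelial, Fabp4 (NCBI Gene 11770), the binding protein of fat cells that capillary endothelium also makes, had 88.9, 62.9 and 62.1 CPM in the Db replicates and 162, 36.3 and 82.5 CPM in the Db + Ato10 replicates. The Db + Ato10 group held both the highest library (replicate 1) and the lowest (replicate 2), on either side of the Db range. edgeR gave it a log2 fold change of 0.39 with a standard error of 0.50 (adjusted p = 0.681), which became -0.26 without Db + Ato10 replicate 1. The group difference was smaller than the spread within the Db + Ato10 group.

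Vldlr (NCBI Gene 22359) had 110, 93.4 and 121 CPM in the Db replicates and 44.9, 86.6 and 83.5 CPM in the Db + Ato10 replicates. All Db + Ato10 libraries lay below all Db libraries, by a narrow margin for replicates 2 and 3 and by a wide one for replicate 1. Means were 108 ± 14.0 CPM for Db and 71.7 ± 23.3 CPM for Db + Ato10 (± SD, n = 3 each). By edgeR, Vldlr had a log2 fold change of -0.59 with a standard error of 0.27 (adjusted p = 0.322), which moved to -0.34 without Db + Ato10 replicate 1.

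Olr1 (NCBI Gene 108078) had 1, 0 and 1 counts in the Db replicates and 154, 24 and 3 counts in the Db + Ato10 replicates, which were 10.1, 1.62 and 0.236 CPM. The Db + Ato10 counts lay above the Db counts in each library, but those of replicate 3 lay at the detection limit. Scaled by TMM library sizes, the 181 counts of the Db + Ato10 group against 2 of the Db group gave a ratio of 77.4, with an exact 95% counting interval from 21.1 to 644. Without Db + Ato10 replicate 1 the ratio was 17.9 (27 counts against 2, interval from 4.50 to 155). The interval covers counting error only and not the spread between libraries. Olr1 did not reach the filter. An alternative fit without the filter included it, but with 2 counts in the Db group its test there is not used.

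Endothelial markers as a list differed little between the groups. The 13 markers summed to 887, 780 and 855 CPM in the Db libraries and to 1025, 420 and 865 CPM in the Db + Ato10 libraries, with Plvap the most abundant per length. Db + Ato10 replicate 2 was lowest in this sum, as it was for Fabp4. Olr1, like the sum, was highest in replicate 1. Vldlr did not follow the sum and was lowest in that replicate. Of the other lists, the proximal tubule sum was also lowest in replicate 1, and the macrophage, neutrophil, lymphocyte and squamous sums given below all fell from replicate 1 to replicate 3 of the Db + Ato10 group as Olr1 did. Of the 13, 1 was lower at an unadjusted p-value under 0.05 (Kdr, log2 fold change -1.05) and 0 were higher, with a median log2 fold change of -0.16 (0.16 without Db + Ato10 replicate 2), and Flt1 and Tek followed Kdr by p-value (-0.79 and -0.67). No marker of the 13 was lower at that p-value without Db replicate 1 or without Db replicate 3. Without Db + Ato10 replicate 3, 3 were lower, beside 29.9% of all tested genes in either direction. Without Db + Ato10 replicate 2, 2 were higher, beside 11.4% of all tested genes in either direction. Set against the endothelial sum, which does not include it, Fabp4 was 10.0%, 8.07% and 7.27% in the Db libraries and 15.8%, 8.64% and 9.54% in the Db + Ato10 libraries. The part of any of these lists in the results for Fabp4, Vldlr and Olr1 was not tested.

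Fabp4, Lpl and Cd36 are also abundant in fat. Adipocyte markers were therefore read in the same libraries. Adiponectin (Adipoq) had 0, 0 and 1 counts in the Db replicates and 1, 0 and 1 in the Db + Ato10 replicates. Perilipin 1 (Plin1) had 1 count in Db replicate 3 and 0 in the other libraries, so both defining markers were at or near 0 in all 6 libraries. Of the 11 listed adipocyte markers 10 had a row and 4 were tested. The list summed to 7416, 3885 and 5241 CPM in the Db libraries and to 275, 4284 and 7703 CPM in the Db + Ato10 libraries. Nearly all of that sum was Pck1, the most abundant gene of the list and also an enzyme of the proximal tubule (7401 of the 7416 CPM in Db replicate 1). Log2 fold changes were -0.49 for Thrsp, -0.43 for Pck1 and 0.04 for Car3. Cidec had 0.318, 0.347 and 0.485 CPM in the Db replicates and 0.922, 1.62 and 0.945 CPM in the Db + Ato10 replicates, each above every Db library. It reached 10 counts in Db + Ato10 libraries only, so its values are given without a test.

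Msr1 (NCBI Gene 20288), the class A scavenger receptor of macrophages, had 0.318, 1.56 and 0.969 CPM in the Db replicates and 94.7, 18.0 and 1.97 CPM in the Db + Ato10 replicates. It was very high in Db + Ato10 replicate 1, high in replicate 2 and just above the highest Db library in replicate 3 (25 counts against 18). The groups did not overlap, but the Db + Ato10 libraries differed among themselves by up to 48.1-fold. Msr1 had a log2 fold change of 5.33 with a standard error of 1.44, which did not pass adjustment (unadjusted p = 0.00871 and adjusted p = 0.239 with edgeR's quasi-likelihood test). The value was 3.42 without Db + Ato10 replicate 1 (adjusted p = 0.347 with edgeR). Without Db + Ato10 replicate 3 it was 5.90 and passed with edgeR (adjusted p = 0.0287), where 8.18% of all tested genes were called. DESeq2 gave 5.35 with all 6 libraries (adjusted p = 0.000239 with DESeq2), and over the alternatives that kept all 6 libraries and the gene, the other adjusted p-values ran from 0.23 to 0.423 (edgeR or limma). The unadjusted p-value was not under 0.05 with limma-voom (log2 fold change 4.31, unadjusted p = 0.148) or with limma on log2(FPKM + 1), where the log2 fold change was 2.35 (unadjusted p = 0.0504), and on log2(FPKM + 0.1) it was 3.65 (unadjusted p = 0.0261).

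The summed macrophage markers had the same order of libraries as Msr1, which single markers did not all share. The 14 markers summed to 238, 310 and 252 CPM in the Db libraries and to 5447, 1434 and 364 CPM in the Db + Ato10 libraries, with Lyz2 the most abundant per length. Of the 14, 13 were higher at an unadjusted p-value under 0.05 with edgeR, beside 11.2% of all tested genes, and 0 were lower (9 higher without Db replicate 1, and 5 with limma-voom). The median log2 fold change was 3.18. In 7 of the 14 every Db + Ato10 library lay above every Db library, as in 12% of all tested genes. Mertk was the exception, at a log2 fold change of -0.24, a name chosen after its values were seen. The smallest p-values belonged to Cd14, C1qc and Trem2 (log2 fold changes of 5.25, 3.28 and 4.44). Set against the macrophage sum, which does not include it, Msr1 was 0.133%, 0.504% and 0.384% in the Db libraries and 1.74%, 1.26% and 0.541% in the Db + Ato10 libraries. This ratio was thus higher in each Db + Ato10 library than in each Db library, narrowly for replicate 3. The makeup of the sum differed between the groups, however. Mertk, which was not higher after atorvastatin, had 100 of the 238 CPM in Db replicate 1 and 69.2 of the 5447 CPM in Db + Ato10 replicate 1. The ratio therefore cannot show whether Msr1 changed per macrophage. The part of the macrophage list in the result for Msr1 was not tested.

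Sums of other immune lists were also highest in Db + Ato10 replicate 1, then replicate 2. The 10 neutrophil markers summed to 6.52, 10.7 and 6.06 CPM in the Db libraries and to 11180, 122 and 13.7 CPM in the Db + Ato10 libraries. Of the 10, 5 were tested, and 2 of these, Mmp9 and Retnlg, reached 10 counts in Db + Ato10 libraries only, so their direction was set by the filter and no count is given over the list. S100a9 was the most abundant. S100a8 had 1.51, 1.91 and 0.485 CPM in the Db replicates and 3276, 27.4 and 2.13 CPM in the Db + Ato10 replicates, and Csf3r had 0.874, 2.25 and 1.94 against 192, 20.9 and 2.36 CPM, so that both rested on replicates 1 and 2 of the Db + Ato10 group. Mmp9 had 5, 3 and 7 counts in the Db replicates and 3726, 198 and 26 in the Db + Ato10 replicates. Of the 10 B and T lymphocyte markers 9 had a row and 4 were tested. Cd3g, also the most abundant, Cd79b and Cd4 had the smallest p-values, and 2 of the 4 were higher at an unadjusted p-value under 0.05, but none with limma-voom, without Db replicate 1 or without Db replicate 3. The list's sum was 2.23, 7.20 and 2.99 CPM in the Db libraries and 35.0, 19.3 and 4.10 CPM in the Db + Ato10 libraries. The part of these lists in the results was not tested.

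**Figure D2:**
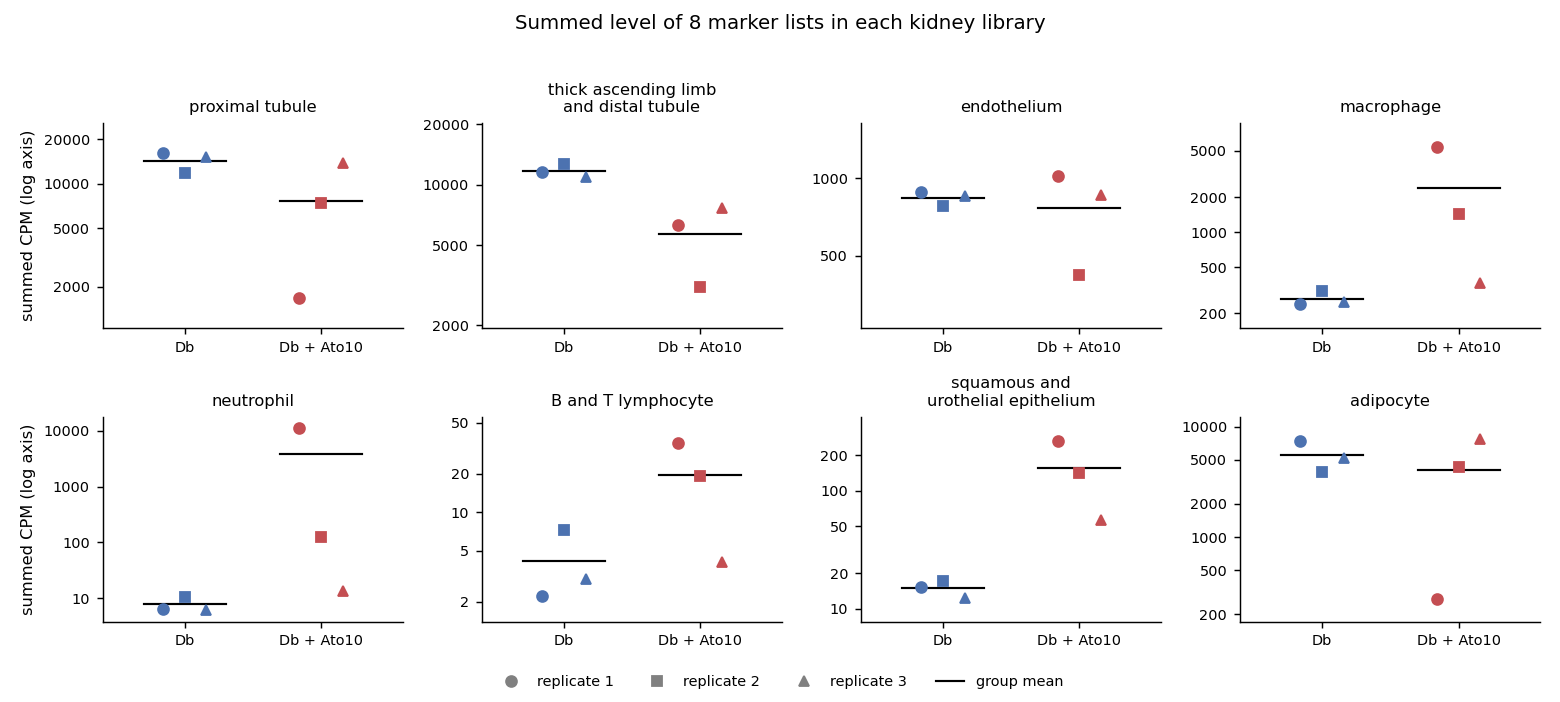
Summed TMM-scaled CPM (vertical axis, logarithmic) of 8 marker lists in each library of the Db and the Db + Ato10 group, with 1 point per library, the replicate number given by the marker shape, and a bar at the group mean (n = 3). The macrophage, neutrophil and squamous sums were higher in every Db + Ato10 library than in any Db library, the thick ascending limb and distal tubule sum was lower in every one, and the proximal tubule, endothelial, lymphocyte and adipocyte sums overlapped.

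Among the members made by several cell types, Lpl (NCBI Gene 16956) had 275, 228 and 203 CPM in the Db replicates and 119, 38.9 and 124 CPM in the Db + Ato10 replicates. Every Db + Ato10 library lay well below every Db library, with replicate 2 the lowest. Means were 236 ± 36.7 CPM for Db and 94.0 ± 47.7 CPM for Db + Ato10 (± SD, n = 3 each), a level 2.51-fold lower by the edgeR fit. The log2 fold change of -1.33 (standard error 0.43) did not pass adjustment (unadjusted p = 0.0195 and adjusted p = 0.239 with edgeR, adjusted p = 0.0568 with DESeq2). It stayed between -1.57 and -0.94 when each library was left out in turn. Without Db replicate 1, the library lacking Y-linked counts, it was -1.19 and did not pass 0.05 before adjustment (unadjusted p = 0.0645 with edgeR's quasi-likelihood test). The macrophage sum moved the other way from Lpl, and the thick ascending limb and distal tubule sum moved the same way, also with its lowest value in Db + Ato10 replicate 2. The endothelial sum, whose groups overlapped, was lowest in that library too (420 CPM). The proximal tubule sum also had a lower mean after atorvastatin but was lowest in Db + Ato10 replicate 1. The part of these lists in the result for Lpl was not tested.

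Cd36 (NCBI Gene 12491) had 25.8, 28.1 and 58.8 CPM in the Db replicates and 100, 46.1 and 36.8 CPM in the Db + Ato10 replicates. Db + Ato10 replicate 1 was highest, but Db replicate 3 lay above the other two Db + Ato10 libraries, so the groups overlapped. The edgeR log2 fold change of 0.70 (SE 0.48, adjusted p = 0.456) became 0.15 when Db + Ato10 replicate 1 was left out and 1.18 when Db replicate 3 was. Set against the macrophage sum, Cd36 was 10.8%, 9.07% and 23.3% in the Db libraries and 1.84%, 3.22% and 10.1% in the Db + Ato10 libraries.

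Fabp5 (NCBI Gene 16592), the epidermal-type binding protein that macrophages and squamous epithelium also make, had 9.93, 4.94 and 7.59 CPM in the Db replicates and 59.4, 16.3 and 7.40 CPM in the Db + Ato10 replicates. Replicates 1 and 2 of the Db + Ato10 group lay above all Db libraries and replicate 3 lay within the Db range. For Fabp5 edgeR gave a log2 fold change of 1.89 (SE 0.76, unadjusted p = 0.0434 and adjusted p = 0.284 with edgeR), and 0.68 without Db + Ato10 replicate 1 (unadjusted p = 0.161). The unadjusted p-value was also over 0.05 without any one of the Db libraries (0.0729, 0.123 and 0.0999 without replicates 1 to 3), with limma-voom (0.161), with limma on log2(FPKM + 1) and log2(FPKM + 0.1) (0.108 and 0.102) and with the replicate block (0.0514). Reads of Fabp5 and of its processed pseudogenes may not have been fully separated.

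The 13 squamous and urothelial markers summed to 15.1, 17.3 and 12.4 CPM in the Db libraries and to 265, 142 and 56.2 CPM in the Db + Ato10 libraries. Of the 13, 7 were tested, and 3 of these (Krt5, Krt14 and Krt15) reached 10 counts in Db + Ato10 libraries only, so their direction too was set by the filter. Sfn was the most abundant per length, and Sprr1a had a log2 fold change of 3.23. Krt14 had 1, 0 and 0 counts in the Db replicates and 473, 202 and 71 in the Db + Ato10 replicates, and Krt5 had 5, 1 and 5 against 1127, 589 and 149. In Db + Ato10 replicate 3 the list's sum was above every Db library while Fabp5 was not. The part of the squamous and macrophage lists in the result for Fabp5 was not tested.

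Pparg (NCBI Gene 19016) had 2.86, 1.82 and 2.34 CPM in the Db replicates and 2.37, 1.89 and 2.36 CPM in the Db + Ato10 replicates. All 6 libraries were low and the Db + Ato10 values lay inside the Db range. Pparg had a log2 fold change of -0.09 (SE 0.30, adjusted p = 0.887 with edgeR), on 21 to 36 counts per library, and it changed sign in several alternatives.

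Compared between genes as FPKM, a level per length of transcript, the Db group had the highest level for Fabp3, at 167 to 246 FPKM in its libraries, then Fabp4 at 146 ± 28.0 and Lpl at 59.8 ± 7.95 FPKM (mean ± SD, n = 3). Fabp3 and Fabp4 overlapped in range, while Fabp4 lay above Lpl, and Lpl above Vldlr, in every Db library. Vldlr (14.0), Cd36 (13.6), Fabp1 (13.3) and Fabp5 (9.29 FPKM) followed, and neighbours among these overlapped. Pparg (1.27), Msr1 (0.307) and Olr1 (0.0233 FPKM) came last, and each of these lay below the one before in every Db library. In the Db + Ato10 group the order was Fabp4 (195 ± 136 FPKM, mean ± SD, n = 3), Fabp3 (157 ± 71.2), Fabp5 (35.6), Lpl (24.2), Cd36 (22.5), Fabp1 (22.4), Msr1 (11.3), Vldlr (9.31), Olr1 (1.42) and Pparg (1.28). There only Fabp3 and Fabp5, and Vldlr and Olr1, were neighbours whose libraries did not overlap.

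Reads of Lpl, Fabp1 and Fabp3 were assigned to 1 transcript each. Fabp4 had 2 transcripts, of which 1 held between 98.6% and 99.6% of the gene's counts, and of the 3 of Fabp5 1 held between 98.1% and 100%. The reads of Cd36 were spread over 11 transcripts, none with more than 44.1% in any library. Msr1 had 4 transcripts, and 1 of them held 92.7%, 83.2% and 67.4% in the Db + Ato10 replicates. Vldlr had 7 transcripts, of which 2 held most of the counts in each library. Those of Pparg (8 transcripts) and Olr1 (4) rested on too few counts in most libraries to give shares. Transcript shares are estimates from reads that transcripts of a gene have in common.

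The 6 lists of related genes set these members in their pathway, and no gene of them met the criteria with edgeR, while DESeq2 called 12 of 70 (beside 6.46% of all tested genes), leaving out Apoc2, whose test is void as given below. Of the 12 other fatty acid binding proteins 4 were tested, with 1 higher and 0 lower at an unadjusted p-value under 0.05 and a median log2 fold change of 0.56. Without Db + Ato10 replicate 1 there were 2 higher, and without Db + Ato10 replicate 3 there were 2 higher and 1 lower. Over all tested genes, 11.2% were higher and 5.71% lower at that p-value in the main fit. Without Db + Ato10 replicate 3, 29.9% were under it in either direction. The counts of the other lists stand beside the same shares. Dbi, the acyl-CoA binding protein and most abundant of the list, had a log2 fold change of 0.46, and Got2 one of -0.36. Of the 11 fatty acid transport proteins and acyl-CoA synthetases 8 were tested, with 0 higher and 1 lower and a median of 0.05 (-0.03 to 0.06 with a library left out). Without Db replicate 3 there were 2 lower, and without Db + Ato10 replicate 3 there were 1 higher and 2 lower. Acsl3, which activates fatty acids for lipid droplets, had 27.1, 25.8 and 28.3 CPM in the Db replicates and 13.6, 15.0 and 19.3 CPM in the Db + Ato10 replicates (log2 fold change -0.76, adjusted p = 0.239 with edgeR). All 3 Db + Ato10 libraries lay below the Db range for Acsl3. Acsl4 and Acsl1 followed by p-value (0.83 and -0.88), and the proximal tubule transporter Slc27a2, the most abundant, had 422 CPM in Db + Ato10 replicate 1 against 2563 to 3576 CPM in the other libraries.

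Of the 16 other scavenger receptors 12 were tested, with 7 higher and 0 lower at an unadjusted p-value under 0.05, beside 11.2% and 5.71% of all tested genes. There were 4 higher without Db replicate 1, without Db replicate 3 or with limma-voom. With limma-voom, without Db + Ato10 replicate 1 or without Db + Ato10 replicate 3, 1 was lower. The median log2 fold change was 1.12 (0.63 without Db + Ato10 replicate 1). The 3 with the smallest p-values were Mrc1, Scara3 and Cd68 (3.15, 3.23 and 4.32), of which Mrc1 and Cd68 are also on the macrophage list. Cxcl16, which binds oxidized lipoproteins and was the most abundant, had 32.5, 58.2 and 39.7 CPM in the Db replicates and 227, 230 and 54.3 CPM in the Db + Ato10 replicates. Its Db + Ato10 replicates 1 and 2 were high and replicate 3 lay within the Db range, as for Fabp5. Of the 16 other lipoprotein receptors, all tested, 2 were higher (1 without Db replicate 1) and 0 lower. Without Db + Ato10 replicate 3, 3 of them were lower, where 29.9% of all tested genes were under that p-value in either direction. The median of the 16 was -0.13 (-0.199 to -0.0199 with a library left out). Lsr and Lrp1 were the higher ones (0.67 and 1.81), Lrp4 came next by p-value (-0.70), and the receptor chaperone Lrpap1 was the most abundant.

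Of the 15 partners of lipoprotein lipase and other lipases 13 were tested, with 2 lower at an unadjusted p-value under 0.05 (1 to 3 with a library left out). Apoc2, the activator of lipoprotein lipase, had 0.159, 0.433 and 0.162 CPM in the Db replicates (2, 5 and 2 counts) and 23.7, 6.21 and 0.788 CPM in the Db + Ato10 replicates (360, 92 and 10 counts). It passed the filter through the Db + Ato10 libraries only, so its values are given without a test. The lysosomal lipase Lipa was lower (-0.70), and Apoc3 was the most abundant gene per length. Of the 18 partners and coregulators of PPARgamma, all tested, 2 were higher (1 to 2 with a library left out) and 4 lower (1 without Db replicate 2). Their median was -0.20 (-0.238 to -0.113 with a library left out). Cebpd was higher (1.81) and the coactivators Ppargc1a and Prdm16 were lower (-1.06 and -0.65). Cebpb, the most abundant, was the other higher gene (2.44). It had 328 CPM in Db + Ato10 replicate 1 against 10.7 to 53.1 CPM in the other libraries.

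The tested genes most like each member were taken from 10662 genes with at least 50 counts in every library, by the root mean square difference of mean-centred log2 CPM over the 6 libraries. For Msr1 they were Lyz2 (0.227), Cd14 (0.525) and Fcgr3 (0.586), and for Fabp5 they were Tubb6 (0.256), Bst1 (0.262) and Ggta1 (0.267). For Lpl they were Ank2 (0.137), Esrrb (0.145) and Slc16a7 (0.207), and for Vldlr Sult1c2 (0.0473), Depdc1b (0.0911) and Id4 (0.0937). Slc16a7, for example, had 330, 299 and 290 CPM in the Db replicates and 158, 65.4 and 131 CPM in the Db + Ato10 replicates, and was lowest in replicate 2 of that group as Lpl was. Those of Fabp4 were Gja4 (0.169), 6430548M08Rik (0.188) and Ptpro (0.196), those of Fabp3 Angptl2 (0.144), Kng2 (0.147) and Kcp (0.161), and those of Cd36 Gsap (0.173), Zfp385a (0.248) and Ptgr1 (0.267). For Fabp1 the nearest, Bex4, differed by 0.90, so no gene with that depth came close to it. Pparg spanned less than 1 log2 unit and was not compared.

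The copy of RefSeq promoters used here (build GRCm38.p6) held those of 6 of the 10 genes (Cd36, Fabp1, Fabp3, Olr1, Pparg and Vldlr). The 250 bases before the start of transcription are given for 3 of them. Fabp1 and Cd36 are shown as known targets of PPAR receptors, and Olr1 as the member with the fewest counts in the Db group. Capitals mark matches to a pair of motifs, each searched on both strands. The first is the nuclear receptor half-site AGGTCA, found in 14.0% of 32851 promoter windows of this length. The second is the AP-1 motif TGAGTCA, found in 4.46% of them. The Fabp1 window (chr6:71199629-71199878, plus strand) held the half-site at 2 places. The Cd36 window (chr5:17835897-17836146, minus strand) held 1 half-site, and the Olr1 window (chr6:129507166-129507415, minus strand) held 1 half-site and 1 AP-1 motif. Of the windows not shown, that of Fabp3 and both of Vldlr held neither motif, and 2 of the 3 of Pparg held 1 half-site each. A match describes the letters only.
Fabp1: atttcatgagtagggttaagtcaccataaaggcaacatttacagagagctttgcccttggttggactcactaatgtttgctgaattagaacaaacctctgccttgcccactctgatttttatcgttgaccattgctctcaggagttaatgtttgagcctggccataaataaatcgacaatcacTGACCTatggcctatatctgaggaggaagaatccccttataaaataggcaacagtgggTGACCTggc
Cd36: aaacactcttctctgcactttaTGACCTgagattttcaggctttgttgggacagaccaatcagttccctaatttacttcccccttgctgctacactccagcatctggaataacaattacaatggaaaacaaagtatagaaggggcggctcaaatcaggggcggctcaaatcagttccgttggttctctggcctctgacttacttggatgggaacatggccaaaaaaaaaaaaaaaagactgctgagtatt
Olr1: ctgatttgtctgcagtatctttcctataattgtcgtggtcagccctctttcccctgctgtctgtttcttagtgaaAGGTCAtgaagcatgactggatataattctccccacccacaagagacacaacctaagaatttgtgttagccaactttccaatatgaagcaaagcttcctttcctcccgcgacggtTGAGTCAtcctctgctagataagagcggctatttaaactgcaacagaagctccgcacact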

How the data were processed

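Expected counts of genes and transcripts were deposited (estimated reads without normalization, 91.3% of gene values whole), together with FPKM, which the authors scaled by length and depth. TPM and the authors' group averages were not used. The submitters' processing notes name HISAT, Bowtie2 2.2.5 and mm9 with no role, and the counter and annotation are not given in the sources used here. No pair of libraries held identical counts (0 pairs).

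Expected counts were rounded. Genes reaching 10 counts in 3 or more libraries were tested by edgeR 4.0.16 (TMM, quasi-likelihood F test, installed defaults) in R 4.3.3, adjusting over all tested genes by the Benjamini-Hochberg method. Standard errors (SE) were the size of the log2 fold change over the root of F. The fold change criterion of 1.5 and the adjusted p-value of 0.05 are those of the study, which names no test. With 3 against 3 libraries an exact permutation test cannot give a two-sided p under 0.1, so none was run. The fit was tested on simulated data. Log2 CPM used a prior count of 2. Alternatives used DESeq2 1.42.0, limma 3.58.1 (voom, and log2 of FPKM + 1 or + 0.1), upper-quartile scaling, other filters, a replicate block and each library left out. Bias-adjusted deviances of edgeR were an alternative chosen after seeing the data. Python 3.11.15 with matplotlib 3.10.9 made the figures.

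Members and lists were chosen with earlier results of these data known. Members were grouped by cell types held to express them in kidney, and these bulk libraries do not show which cells held their RNA. Named were all members, per list the most abundant gene by mean FPKM and the 3 tested genes with the smallest p-values, and the 3 nearest genes of each member that spanned at least 1 log2 unit. Some genes that this rule names are not reported here. Promoters and their motifs were chosen after the values were seen. Mouse sequences are credited to RefSeq (GRCm38.p6), whose gene names matched the lists by symbol or synonym.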

Additional observations from a re-analysis of the deposited data

How the results depend on the processing

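With edgeR 0 of 13679 genes were called (2314 at an unadjusted p-value under 0.05), with DESeq2 884, with limma-voom 0 (1820 at an unadjusted p-value under 0.05) and with limma on log2(FPKM + 0.1) 1. Leaving out each library in turn gave 0 to 1106, with calls in a single one of these fits, that lacking Db + Ato10 replicate 3. Of the members 0 were called, 1 (Msr1) with DESeq2 and 0 to 1 with a library left out. Members at an unadjusted p-value under 0.05 numbered 3, beside 16.9% of all tested genes, with limma-voom and with limma on log2(FPKM + 1) 1 (Lpl, beside 13.3% and 14% of all genes), and 1 to 4 with a library left out (Msr1 alone without Db replicate 1, beside 7.68%, and 4 without Db + Ato10 replicate 3, beside 29.9%). Members whose groups did not overlap numbered 3, beside 23.2% of all tested genes, and 3 to 5 with a library left out, with 5 without Db + Ato10 replicate 3, where the share of all genes was 50.4%.

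The median log2 fold change of the tested members was 0.39. It was -0.0221 with limma-voom, -0.0649 with at least 10 counts in every library (where Msr1 and Fabp1 drop out), 0.12 and 0.0164 with limma on log2(FPKM + 1) and log2(FPKM + 0.1), and -0.13 to 0.48 with a library left out, so it has no stable sign. Signs also changed for Fabp1 (-0.0221 with limma-voom, -0.0199 with log2(FPKM + 0.1), and -1.50 to 2.38 with a library left out), Fabp4 (-0.26 to 0.80 with a library left out) and Pparg (0.00855 and 0.0164 with log2(FPKM + 1) and log2(FPKM + 0.1), and -0.235 to 0.0944 with a library left out). No member passed the adjusted threshold in the main fit, so no call at that threshold could be lost. Of 133 values of single members under alternatives, 123 kept their sign and their side of that threshold, 8 changed sign and 2 gained a call. The cause was not tested.

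With the replicate block the median of the members was 0.17, and 0 genes and 0 members were called. Libraries with the same number did not deviate together (correlations of -0.151, 0.061 and 0.208 for replicates 1 to 3), so they share only a number, and not every library correlated best with its own. With a library left out, the proximal tubule median ran from -1.55 to -0.31, that of the thick ascending limb and distal tubule from -1.25 to -0.85, the macrophage one from 2.28 to 3.70 and the endothelial one from -0.42 to 0.16. At an unadjusted p-value under 0.05, 3 endothelial markers in place of 1 were lower with the replicate block, and 2 proximal tubule markers in place of 0 with DESeq2. Medians of the neutrophil, squamous and adipocyte lists are not used, since genes of these lists passed the filter through the Db + Ato10 libraries only. Olr1 and Msr1 in the Db group rest on few counts, where depth limits the ratio.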
